A study of Mus musculus with 6 samples.

Results

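The genes described here are the annotated microRNA (miRNA) genes of the mouse that lie outside the large miRNA cluster of chromosome 12, measured in the atrioventricular canal (AVC) region of the embryonic heart. Genes were taken if their Ensembl identifier had the gene type miRNA and a symbol beginning with Mir in the annotation of the mouse genome mm9, and if they did not start within the cluster, whose annotated Mir genes run from 110782751 to 110982005 on chromosome 12. The deposited table of 18810 genes held 147 of them, out of 481 such genes in the annotation (30.6%), and a further 23 Mir genes of the cluster were not taken. The genes were 63 to 127 nt long, with a median of 88 nt.

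RNA sequencing of AVC regions, which hold the forming mitral, tricuspid and aortic valves, compared Scx-/- embryos with Scx+/+ littermates. Both groups were C57BL/6 mice at embryonic day 15.5 (E15.5), and each had 3 libraries of total RNA, 1 from each heart. Scx-/- animals lack a functional gene for Scleraxis, a basic helix-loop-helix transcription factor of tendons and heart valves, in every cell, so the loss is not limited to valve cells. No sorting of cells and no selection of small RNA was described, and the dissected region held more than valve tissue.

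A miRNA gene is transcribed as a long primary RNA, from which Drosha and Dgcr8 cut a hairpin precursor in the nucleus and Dicer then cuts the short mature miRNA in the cytoplasm. The mature miRNA sits in an Argonaute protein and pairs through its seed, the bases near its 5′ end, with target messenger RNAs, whose translation and stability it lowers. Many miRNA genes lie inside introns or exons of other genes, called hosts here. In the heart, miRNAs encoded within the myosin heavy chain genes mark cardiomyocytes, others mark smooth muscle or endothelium, and mice without Dicer in cardiac lineages have heart defects.

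Mature sequences were taken from RefSeq (GRCm38.p6 tables) for 107 of the 147 genes, 177 sequences in all with 156 distinct seeds. Genes without a sequence here may still have one in RefSeq. The first set below gives the miRNAs named for the genes that differed most between the genotypes, and the seed, bases 2 to 8, is in capitals.
mmu-miR-27b-3p: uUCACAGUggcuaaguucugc
mmu-miR-27b-5p: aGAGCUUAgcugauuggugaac
mmu-miR-700-3p: cACGCGGGaaccgaguccacc
mmu-miR-700-5p: uAAGGCUCcuuccugugcuugc
mmu-miR-692: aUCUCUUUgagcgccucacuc
mmu-miR-466i-3p: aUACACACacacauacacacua
mmu-miR-30c-5p: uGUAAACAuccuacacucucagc
mmu-miR-30c-1-3p: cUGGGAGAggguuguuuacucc

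The next set gives miRNAs from the genes with the most reads and from the myosin genes, which carry the levels described further on.
mmu-miR-675-5p: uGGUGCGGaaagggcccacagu
mmu-miR-675-3p: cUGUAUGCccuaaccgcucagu
mmu-miR-682: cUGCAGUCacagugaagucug
mmu-miR-686: aUUGCUUCccagacggugaaga
mmu-miR-208a-3p: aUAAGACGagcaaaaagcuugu
mmu-miR-208b-3p: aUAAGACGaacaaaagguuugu

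Among the 107 genes with a sequence, a seed was shared by at least 2 in 13 cases, which together took in 26 genes. Genes without a sequence here, Mir30b among them, could not be counted, so more genes may share these seeds. The seed GAGGUAG was common to 5 genes, Mirlet7a-1, Mirlet7c-1, Mirlet7d, Mirlet7f-2 and Mir98, and ACAUUCA to the 4 Mir181 genes of the table. CCCUGAG was shared by Mir125a, Mir125b-2 and Mir351, and GUAAACA by Mir30a, Mir30c-1 and Mir30c-2. Mir208a and Mir208b, from the introns of the 2 cardiac myosin heavy chain genes, shared the seeds of both arms. The mature let-7 sequences below show how little the members of a seed group may differ beyond the seed.
mmu-let-7a-5p: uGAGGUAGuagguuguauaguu
mmu-let-7c-5p: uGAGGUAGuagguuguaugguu
mmu-let-7d-5p: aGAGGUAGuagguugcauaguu
mmu-let-7f-5p: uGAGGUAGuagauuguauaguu
mmu-miR-98-5p: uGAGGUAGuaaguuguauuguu

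The files gave RPKM, reads normalised to the exon length of a gene and to the depth of its library. An RPKM is a whole number of reads divided by the exon length and the depth, so the reads behind a value could be recovered. All values of the miRNA genes that were not filled, as described below, came out whole within 0.1 read. Library depth was 46429972 to 68570999 reads. The authors had filled values below a minimum with a common value of 0.0949 RPKM, which for genes as short as these stood for less than 1 read (at most 0.827) and is given as 0 reads below. Of the 882 values of the miRNA genes, 434 (49.2%) were filled, against 7.44% of the values of all genes. Scx itself was measured at 33.6, 18.6 and 82.9 RPKM in the Scx-/- libraries and 29.5, 58.3 and 26.0 RPKM in the Scx+/+ libraries, so that the whole-gene values overlapped. Single exons were not analysed here, so which part of the gene the reads came from was not tested. The whole-gene values do not check the labels, and libraries are called here by their label. In summed RPKM of marker genes the genotypes overlapped for cardiomyocytes (9957 to 13867 in Scx-/- and 9335 to 15681 in Scx+/+), endothelium (62.9 to 80.3 and 63.9 to 74.7), erythroid cells (2726 to 4263 and 2476 to 4187), smooth muscle (443 to 612 and 401 to 490) and valve mesenchyme (259 to 421 and 223 to 302). Acta2 made up most of the smooth muscle sum and Postn most of the valve mesenchyme sum. Single markers did not all overlap. Tagln was above in Scx-/- (63.5, 112 and 60.2 RPKM against 53.1, 47.8 and 56.7, unadjusted p = 0.0614 in limma). Col1a1 was below (7.34, 8.09 and 7.70 RPKM against 9.91, 8.36 and 15.8, unadjusted p = 0.0746 in limma), as was Myh7, described further on. Every marker of these 5 lists was above the fill-in value in every library except Hbb-bh1, an embryonic globin gene, which was at it in 3 of the 6, and in such bulk RNA fewer cells of a type and less RNA per cell cannot be told apart.

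Few of the miRNA genes had many reads. The highest read number of a gene in any library ranged from 2 to 1096, with a median of 12. It was 10 or fewer in 70 genes and reached 50, near the read filter given in the methods, in 14. The lowest value with which any gene of the table entered through its highest library was 0.395 RPKM, which a short gene reaches with a few reads. That level was reached in libraries of both genotypes by 75 of the miRNA genes, in Scx-/- libraries alone by 38 and in Scx+/+ libraries alone by 34. Reads were present in all 6 libraries for 25 genes, in 2 to 5 libraries for 77, and in 1 library alone for 45, where they numbered 3 to 27 with a median of 6.

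The reads were concentrated in a small number of genes. Mir675 and Mir682 held 52.7% of all reads of the miRNA genes, and the 10 genes with the most reads held 79.3%. Mir675 lies within a non-coding exon of H19, the imprinted long non-coding RNA that is its precursor (chr7:149762969-149763052, minus strand). It had 1096, 982 and 546 reads in the Scx-/- libraries and 796, 347 and 806 in the Scx+/+ libraries. The libraries of the genotypes overlapped, with the highest in Scx-/- and the lowest in Scx+/+, and the difference of 0.42 on the log2(RPKM + 0.1) scale, on which all differences below are given as Scx-/- minus Scx+/+, had an unadjusted p of 0.227 in limma. It was 0.14 without Scx-/- replicate 1, 0.18 without Scx+/+ replicate 2 and 0.74 without Scx-/- replicate 3. Mir682, inside an exon of the annotated pseudogene Gm4149 on chromosome 13, had 676, 760 and 743 reads in Scx-/- and 630, 835 and 902 in Scx+/+. All 6 of its libraries lay close together in comparison with those of Mir675, and the genotypes overlapped.

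The next 4 genes all lay in exons of protein-coding genes. Mir719 overlapped a coding exon of Nupl1, a nucleoporin gene, and had 130, 326 and 147 reads in Scx-/- and 219, 176 and 169 in Scx+/+. Mir686, inside a coding exon of the proteasome subunit gene Psmb5, had 190, 144 and 156 reads in Scx-/- and 175, 193 and 136 in Scx+/+. Neither gene had a genotype that stood apart. Mir704 overlapped a coding exon of Pdia4, which encodes a disulfide isomerase of the endoplasmic reticulum, and had 234, 213 and 135 reads in Scx-/- and 121, 75 and 203 in Scx+/+. Mir1903, in the 5′ untranslated exon of Nrp1, a co-receptor for semaphorins and VEGF, had 129, 66 and 104 reads in Scx-/- and 81, 28 and 68 in Scx+/+. For both genes 2 Scx-/- libraries were highest and Scx+/+ replicate 2 lowest, but the genotypes overlapped, and limma gave an unadjusted p of 0.0808 for Mir704 (log2 difference 0.58) and 0.0642 for Mir1903 (0.79). With a library left out the difference ranged from 0.33 to 0.82 for Mir704, which was called without Scx-/- replicate 3 (unadjusted p = 0.0423), and from 0.48 to 1.15 for Mir1903, which was called without Scx-/- replicate 2 (unadjusted p = 0.0316). Mir1903 was also called with sex as a covariate (unadjusted p = 0.00671). The labels give no sex, so it was assigned from the RPKM of Xist in these libraries.

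**Figure D1:**
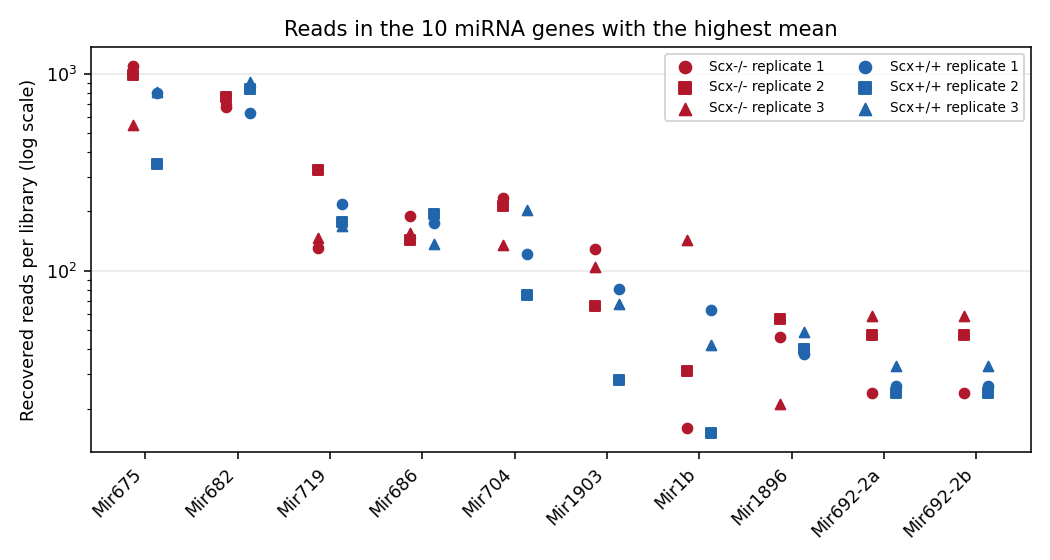
Recovered reads per library (y axis, log scale) of the 10 miRNA genes with the highest mean, with a point for each of the 3 Scx-/- (red) and 3 Scx+/+ (blue) libraries and a marker shape for each replicate number. Mir675 and Mir682 lie between 347 and 1096 reads in every library, and the genotypes overlap in all 10 genes.

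The other genes among the highest had fewer reads. Mir1b, in an intron of the ubiquitin ligase gene Mib1, had 16, 31 and 144 reads in Scx-/- and 63, 15 and 42 in Scx+/+, so that 1 library held much of its signal. Mir1896, in an exon of a long intergenic non-coding RNA, had 46, 57 and 21 reads in Scx-/- and 38, 40 and 49 in Scx+/+. Mir692-2a, in an intron of Grik3, and Mir692-2b, in an exon of Gm10116, had the same 24, 47 and 59 reads in Scx-/- and 26, 24 and 33 in Scx+/+. These 2 genes on different chromosomes are named for the same mature miRNA and had equal reads in every library, so their reads cannot be assigned to 1 of them. Mir1906-2 on the X chromosome was not in another gene and had 34, 36 and 18 reads in Scx-/- and 41, 0 and 51 in Scx+/+, with the only library without a read in Scx+/+. Mir546, in the 3′ untranslated exon of the phosphatase gene Ctdsp2, had 40, 26 and 38 reads in Scx-/- and 18, 24 and 51 in Scx+/+, and Mir678, in that of the methyltransferase gene Prmt2, had 50, 38 and 9 against 27, 13 and 12. For all of these the libraries of the genotypes overlapped.

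Where a miRNA gene lay relative to other genes went with its reads. On the same strand as an exon of another gene lay 35 of the 147 genes. They held 82.3% of the reads, included 10 of the 14 genes with 50 reads or more in a library and 14 of the 25 genes seen in all 6 libraries, and had a median of 5.83 mean reads. The 72 genes in an intron on the same strand had a median of 2.25 mean reads and held 10.4% of the reads. The 26 intergenic genes had a median of 1.58 and held 5.21%, the 9 in an intron of a gene on the opposite strand a median of 5.17 and 1.77%, and the 5 opposite to an exon a median of 1.83 and 0.312%. Among the 35 exonic genes, 16 lay in non-coding exons, 7 in coding exons, 5 in 3′ untranslated exons, 2 in 5′ untranslated exons, 3 in exons both coding and untranslated and 2 in untranslated exons of either kind. Whether the authors' counting used strand was not given in the sources used here, and reads of a host's own transcript over the hairpin cannot be told apart from those of the miRNA gene.

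**Figure D2:**
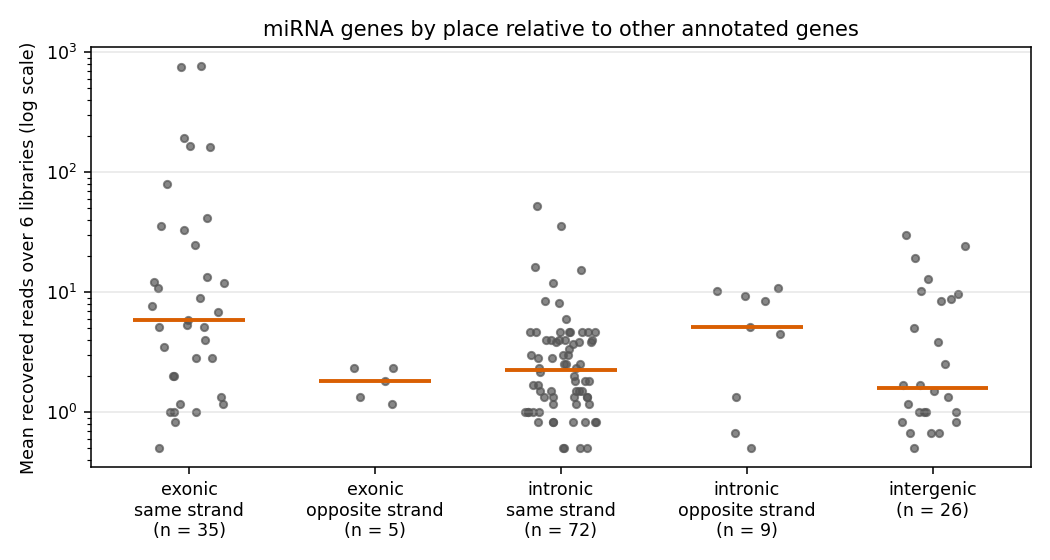
Mean recovered reads over the 6 libraries (y axis, log scale) of each of the 147 miRNA genes, by place relative to other annotated genes, with the median of each class as a bar. Same-strand exonic genes have a median of 5.83 and reach 762, and no other class goes above 51.8.

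The ratio of an exonic miRNA gene to its host varied little between libraries in some cases and more in others. The RPKM of Mir675 was 0.0634 to 0.0889 of that of H19 over the 6 libraries, and that of Mir682 was 0.222 to 0.289 of that of Gm4149. Mir686 stood at 0.924 to 1.30 of Psmb5, so that a stretch the length of the hairpin was covered about as deeply as the rest of the Psmb5 messenger RNA. The ratio was wider for Mir704 to Pdia4 (0.378 to 0.678), Mir719 to Nupl1 (1.10 to 2.81) and Mir1903 to Nrp1 (0.177 to 0.620). Over the genes whose host was also in the table, the median ratio was 0.342 for the 33 in a same-strand exon, 0.0543 for the 40 in a same-strand intron, 0.415 for the 5 opposite to an exon and 0.110 for the 7 in an intron on the opposite strand. Both values of a ratio came from the same library and, for exonic genes, in part from the same bases.

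**Figure D3:**
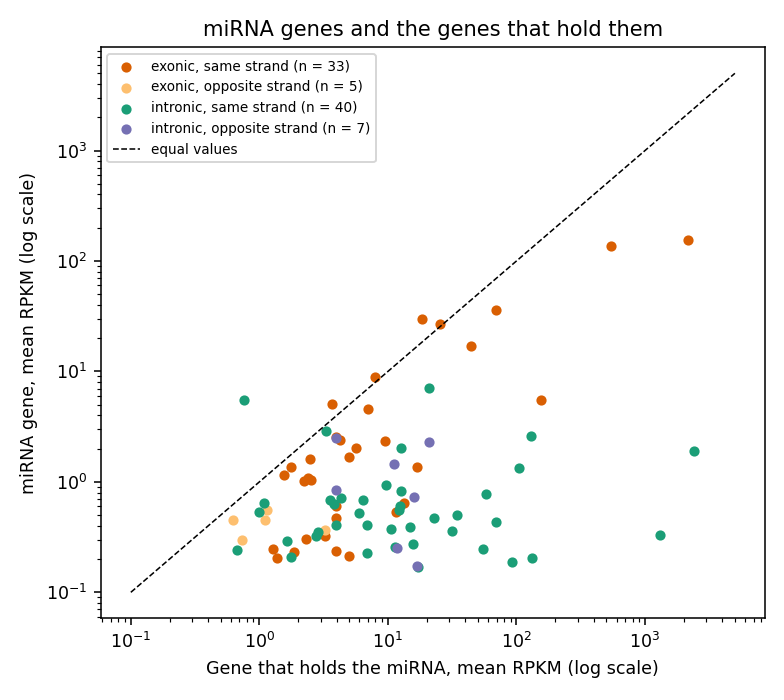
Mean RPKM over the 6 libraries of 85 miRNA genes (y axis, log scale) against that of the gene that holds each (x axis, log scale), coloured by place, with a dashed line at equal values. Exonic genes lie nearer to the line (median ratio 0.342) than same-strand intronic genes (0.0543).

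The genotypes were first compared by library. The number of miRNA genes with at least 1 read was 71, 71 and 84 in the Scx-/- libraries and 86, 68 and 68 in the Scx+/+ libraries, 75.3 ± 7.51 (SD, n = 3) against 74.0 ± 10.4 (exact permutation test, two-sided, p = 0.6, where 0.1 is the smallest p that 3 against 3 can give). The genotypes overlapped, and the difference of 1.33 genes turned to -3.00 without Scx-/- replicate 3 and to -1.67 without either Scx+/+ replicate 2 or Scx+/+ replicate 3, while it was 7.33 without Scx+/+ replicate 1. Normalised to library depth (RPM), the reads of all miRNA genes together were 60.5, 49.4 and 46.8 in Scx-/- and 46.5, 47.9 and 44.2 in Scx+/+, 52.2 ± 7.31 against 46.2 ± 1.86 (exact permutation p = 0.2). Scx-/- replicate 1 was the highest, and without it the difference of 6.06 RPM was 1.91.

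Of the 147 miRNA genes, 6 (4.08%) were called, that is had an unadjusted p under 0.05 in limma, where 3.89% of all 18810 genes were called, so the share of miRNA genes was close to that of all genes. Mir27b and Mir1927 were called higher in Scx-/- (2 genes, where 2.82% of all genes were called higher) and Mir700, Mir692-1, Mir466i and Mir30c-1 lower (4 genes, where 1.06% were called lower). After centring every library on a median log2 ratio of 0, which moved the median log2 difference of all genes from 0.10 to -0.00450 and that of the miRNA genes to 0.12, 1 miRNA gene was called higher and 8 lower. In that fit 646 of all genes (3.43%) were called in either direction. Their split by direction is not given here, so the 8 lower calls cannot be set against a share of all genes. None of the miRNA genes passed an adjusted p of 0.05 in limma, where the smallest was 0.446, or in an unmoderated one-way test of each gene on RPKM or on its log2, which called 3 genes each without adjustment. The one-way test called 4.51% of all genes on RPKM and 4.58% on log2 RPKM. The median log2 difference was 0.23 over the miRNA genes and 0.10 over all genes, and 55.1% of the miRNA genes (81) lay above 0, against 63.8% of all genes. The libraries of the genotypes did not overlap for 7 of the miRNA genes (4.76%), where this held for 9.5% of all genes. Mir27b and Mir24-2 were the 2 with Scx-/- above (7.19% of all genes), and Mir700, Mir692-1, Mir466i, Mir30c-1 and Mir208b were the 5 with Scx-/- below (2.31% of all genes).

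Mir27b was higher in Scx-/- with the most reads of any called gene. It belongs to the family of Mir23, Mir27 and Mir24, whose members are expressed in endothelial and other vascular cells, and lies in an intron of 2010111I01Rik (chr13:63402008-63402104, plus strand). It had 36, 29 and 19 reads in the Scx-/- libraries and 6, 2 and 6 in the Scx+/+ libraries. Every Scx-/- library was thus above every Scx+/+ library, also in RPM. Summed over libraries these were 84 against 14 reads, a 5.87-fold difference in RPM, and limma gave a log2 difference of 2.50 (SE 0.40, unadjusted p = 0.000158, adjusted p = 0.446). The call held in all 11 alternative fits that gave a value, with log2 differences of 1.69 to 2.66, and without each of the 6 libraries in turn, at 2.17 to 2.75. Its host measured 3.45 ± 0.888 RPKM in Scx-/- and 3.09 ± 0.561 in Scx+/+ (SD, n = 3 each, log2 difference 0.14, unadjusted p = 0.632 in limma), a difference that was -0.04 without Scx-/- replicate 3.

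The other genes of that family were near the limit of detection. Mir24-2 had 1, 1 and 4 reads in Scx-/- and 0 in each Scx+/+ library, and Mir23a, its neighbour on chromosome 8, had 1, 0 and 3 reads in Scx-/- and 1, 1 and 3 in Scx+/+. Neither was called. Mir24-2 reached the entry level in Scx-/- libraries alone, the genotype in which it was high.

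Mir700 was lower in Scx-/-. It overlaps a coding exon of Rcan3, a regulator of the phosphatase calcineurin (chr4:134972470-134972548, minus strand). It had 0, 0 and 2 reads in Scx-/- and 15, 4 and 11 in Scx+/+, with every Scx-/- library below every Scx+/+ library. The ratio of 30 to 2 summed reads was 15.3 in RPM with a 95% exact binomial interval of 3.89 to 133, which covers counting error only. In limma the log2 difference was -2.90 (SE 0.57, unadjusted p = 0.000695, adjusted p = 0.852), and the call held in all 11 alternative fits, at -3.61 to -1.32, and without each library in turn, at -3.38 to -2.55. Rcan3 as a whole measured 1.44 ± 0.186 RPKM in Scx-/- and 1.68 ± 0.166 in Scx+/+, a log2 difference of -0.21 (unadjusted p = 0.481 in limma).

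Mir692-1, in no other gene on chromosome 17 (chr17:7099578-7099686, minus strand), was also lower. It had 5, 6 and 3 reads in Scx-/- and 13, 15 and 9 in Scx+/+, again without overlap. The 37 reads of Scx+/+ were 2.70-fold the 14 of Scx-/- in RPM, and the log2 difference was -1.35 (SE 0.42, unadjusted p = 0.0114, adjusted p = 0.967 in limma). Without Scx-/- replicate 3 the p was 0.0516, and on RPM it was 0.183. In the unmoderated one-way test on RPKM it was 0.0643. Mir692-2a and Mir692-2b, named for the same mature miRNA shown above, did not have this pattern, since their 24 to 59 reads in Scx-/- overlapped the 24 to 33 in Scx+/+. Mir27b, Mir700 and Mir692-1 are also on a list that the study chose on these same libraries, so that list is no independent evidence of their direction.

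The other 3 called genes rested on few libraries. Mir466i, in an intron of the kinase gene Cdk13 but on the opposite strand (chr13:17839307-17839427, plus strand), had 0, 0 and 9 reads in Scx-/- and 10, 26 and 11 in Scx+/+. Its log2 difference was -2.54 (SE 0.81, unadjusted p = 0.0125 in limma). The p rose to 0.0833 without Scx-/- replicate 1, 0.09995 without Scx-/- replicate 2, 0.0750 without Scx+/+ replicate 2 and 0.0508 without Scx+/+ replicate 3. In the unmoderated one-way test it was 0.0810 on log2 RPKM and 0.165 on RPKM. Its mature sequence, shown above, is made largely of CA repeats. Mir30c-1, in an intron of Nfyc, a subunit gene of the transcription factor NF-Y (chr4:120442139-120442227, minus strand), had 0, 1 and 0 reads in Scx-/- and 2, 19 and 2 in Scx+/+, so that 1 library held 19 of the 23 reads of Scx+/+. It is among the 34 genes that reached the entry level in Scx+/+ libraries alone, the genotype in which it was high. The filter on low values could thus have let it in only through that genotype. Its ratio and p below are no support for a difference. Its ratio was 23.5 in RPM with a 95% exact binomial interval of 3.82 to 969 for counting error, and its log2 difference of -2.18 (SE 0.89, unadjusted p = 0.0375 in limma) was -1.06 (unadjusted p = 0.0716) without Scx+/+ replicate 2. The p was also 0.118, 0.103 and 0.126 without Scx-/- replicates 1, 2 and 3. Mir30c-1 was called in 4 of 10 alternative fits with all libraries. The unmoderated one-way test did not call it on log2 RPKM (unadjusted p = 0.0883) or on RPKM (unadjusted p = 0.309).

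Mir1927, in an intron of Rabgap1l, a GTPase-activating protein gene, had 7, 15 and 0 reads in Scx-/- and none in any Scx+/+ library. With a chosen floor of 3 reads in place of 0 over the 3 Scx+/+ libraries, the summed 22 reads of Scx-/- would be 7.17-fold in RPM. That figure leaves out the spread between libraries. Mir1927 is among the 38 genes that reached the entry level of the table in Scx-/- libraries alone. The filter on low values could thus have let it in only through the genotype in which it was high, and the fold is no support for a difference. A Scx-/- library had no read either, so the genotypes overlapped, and the log2 difference of 2.08 (SE 0.86, unadjusted p = 0.0398 in limma) was called in 6 of 10 alternative fits with all libraries. Among the fits with a library left out it was called without Scx-/- replicate 3, and in no other. The p was 0.148 and 0.164 without Scx-/- replicates 1 and 2, and 0.110, 0.0924 and 0.121 without Scx+/+ replicates 1, 2 and 3. The hosts of these 3 genes were not called.

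**Figure D4:**
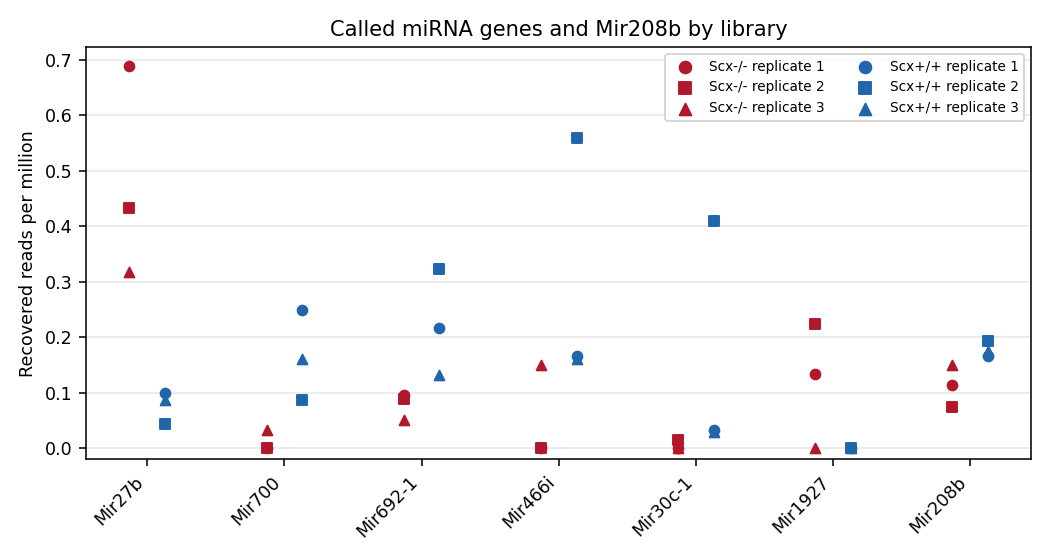
Recovered reads normalised to depth (RPM, y axis) of the 6 called miRNA genes and Mir208b in each library, Scx-/- in red and Scx+/+ in blue, with a marker shape for each replicate number. The genotypes are apart for all but Mir1927, and Mir30c-1 and Mir466i have their highest value in Scx+/+ replicate 2.

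The miRNA genes of the cardiac myosin heavy chain introns were seen at low levels. Mir208b, in an intron of Myh7 (chr14:55594537-55594613, minus strand), had 6, 5 and 9 reads in Scx-/- and 10, 9 and 12 in Scx+/+. In RPM the Scx-/- libraries were all below the Scx+/+ libraries, but the difference was not called (log2 -0.67, SE 0.32, unadjusted p = 0.0686 in limma), while it was called without Scx-/- replicate 3 (unadjusted p = 0.0291), after centring every library on the median (unadjusted p = 0.0397) and in the unmoderated one-way test on RPKM (unadjusted p = 0.0495). Myh7 itself, the slow myosin of fetal ventricle, measured 2313, 1923 and 2148 RPKM in Scx-/- and 2824, 2826 and 2380 RPKM in Scx+/+. These too did not overlap, at a log2 difference of -0.33 (unadjusted p = 0.316 in limma), and the unmoderated one-way tests called it on log2 RPKM (unadjusted p = 0.0431) and on RPKM (unadjusted p = 0.0423). Together Mir208a, Mir208b and Mir133a-1, the 3 genes of the muscle list in the table of 8 annotated, had 25, 5 and 13 reads in Scx-/- and 34, 27 and 19 in Scx+/+, and none was called. Mir1b, described above, was not on that list, and its difference was in the other direction and not called (log2 0.24, unadjusted p = 0.743 in limma).

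**Figure D5:**
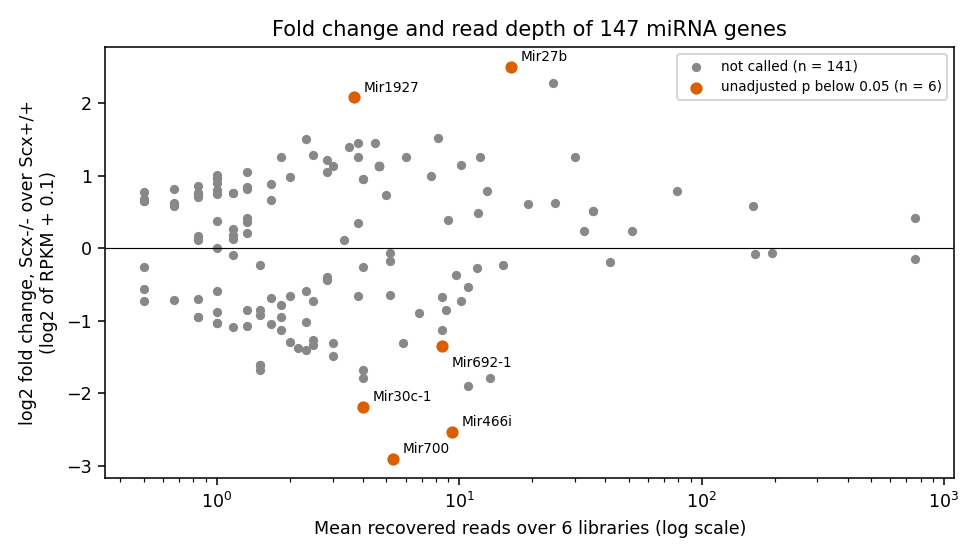
Log2 difference of each of the 147 miRNA genes, Scx-/- over Scx+/+ on the log2(RPKM + 0.1) scale (y axis), against its mean recovered reads over the 6 libraries (x axis, log scale), with the 6 called genes in orange. All 14 genes with a mean of 20 reads or more are uncalled, and all called genes have a mean below 20 reads.

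Other families known for their tissues or functions were each described by their measured members. The smooth muscle pair Mir143 and Mir145 had 8 reads together in Scx-/- replicate 1 and 6 in Scx+/+ replicate 1 and none in the other 4 libraries. Mir126 of endothelium had 12 reads in Scx+/+ replicate 1 and 0 elsewhere, and Mir451 of erythroid cells had 1 read in Scx-/- and 2 in Scx+/+. The summed markers of the same cell types were at 401 RPKM or more for smooth muscle, 62.9 or more for endothelium and 2476 or more for erythroid cells in every library. Mir21, in the 3′ untranslated exon of Vmp1, had 21 reads in Scx-/- replicate 2 and none in the other 5 libraries. Mir15b, of a family that limits the cell cycle, had 5 reads in Scx+/+ replicate 3 alone and was the only gene in the table of 4 annotated, and Mir29c, of a family that targets collagen messenger RNAs, had 6 reads in Scx-/- replicate 2 and 11 in Scx+/+ replicate 2 and was 1 of 4. No gene was in the table of the Mir200 family (5 annotated genes outside the cluster), which marks epithelia, the Mir34 family (3), whose transcription p53 raises, or the Mir10 and Mir196 genes of the Hox clusters (5).

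The let-7 genes, which rise during development and limit growth-promoting messenger RNAs, were the best covered of these families. The 4 in the table of 8 annotated had 26, 31 and 66 reads together in Scx-/- and 31, 38 and 38 in Scx+/+, with none called. Mirlet7a-1 had 7, 20 and 47 reads in Scx-/- and 15, 21 and 5 in Scx+/+, and its neighbour Mirlet7d 19, 0 and 11 against 8, 11 and 12. The highest library of the former was thus not that of the latter. In the Mir30 family, 4 of 6 annotated genes had 8, 12 and 42 reads together in Scx-/- and 22, 51 and 23 in Scx+/+, with Mir30c-1 called lower. Mir30a, which shares its seed, had 7, 7 and 12 reads against 11, 10 and 11. In the Mir181 family, 4 of 6 genes had 6, 5 and 7 reads against 15, 0 and 32, and none was called.

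Genes that lie within 10000 bp of each other on 1 strand, and so may come from 1 primary transcript, often differed in which library was highest. In the cluster of Mir17hg, known for driving proliferation and needed for normal heart septation, Mir19a had 2, 19 and 1 reads in Scx-/- and 11, 5 and 42 in Scx+/+, while Mir18 had 6, 0 and 7 against 0, 4 and 0. Mir20a and Mir92-1 of the same run stayed at 5 reads or fewer. With Mir106b, these 5 of 15 annotated genes of the cluster and its paralogs had 10, 20 and 9 reads together in Scx-/- and 20, 12 and 48 in Scx+/+, and none was called. On the X chromosome Mir351 had 30, 60 and 11 reads in Scx-/- and 41, 0 and 4 in Scx+/+, a log2 difference of 2.27 (unadjusted p = 0.0774 in limma) that ranged with the library left out from 1.11 (unadjusted p = 0.346) without Scx+/+ replicate 2 to 3.69 (unadjusted p = 0.00680) without Scx+/+ replicate 1, and was called in that last case alone. Its neighbour Mir503 had 7, 4 and 2 reads against 16, 0 and 1, so both were at their lowest in Scx+/+ replicate 2. Mir450-1 and Mir450-2 of that run were each seen in 1 library alone. Mir199a-2, in the transcript Dnm3os, had 20, 5 and 4 reads in Scx-/- and 9, 7 and 20 in Scx+/+, and Mir214 of the same transcript 6 reads in Scx-/- replicate 2 alone.

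An intron of Sfmbt2, an imprinted Polycomb gene, holds the largest group, with 31 genes in the table of 68 annotated, named Mir466, Mir467, Mir669 and the like. They held 2.84% of the reads of all miRNA genes, and no gene of the group had more than 23 reads in a library. Their summed reads were 60, 9 and 209 in Scx-/- and 71, 106 and 37 in Scx+/+, with the highest and the lowest library in the same genotype, and none of the 31 was called. They are no independent measurements, since they made only 18 distinct read profiles. The 8 copies of Mir669a each had the same 5, 0 and 18 reads in Scx-/- and 3, 2 and 0 in Scx+/+. Over all 147 genes, 4 profiles with reads in at least 2 libraries were shared by 15 genes. With every set of identical copies counted as 1 gene, 136 genes were left, and 6 were called.

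The hosts of the miRNA genes were tested in the same fit. Of 83 distinct hosts in the annotation, 78 were in the table, and 4 of these (5.13%) were called at an unadjusted p below 0.05, beside the 3.89% of all genes. None passed adjustment in limma. Gm11146 was the furthest apart (chr16:77588823-77602339, minus strand), a gene whose span holds Mir99a and Mirlet7c-1 on the opposite strand. It measured 0.199, 1.87 and 0.872 RPKM in Scx-/- and 6.94, 6.73 and 6.99 RPKM in Scx+/+, from 1, 12 and 5 reads against 40, 30 and 46. The genotypes were well apart, with a log2 difference of -3.07 (SE 0.58, unadjusted p = 0.000548, adjusted p = 0.799 in limma) that was called in all 12 alternative fits and without each library in turn. Mir99a, within its span, had 4, 30 and 12 reads in Scx-/- and 6, 3 and 6 in Scx+/+ and was not called (unadjusted p = 0.0672 in limma), and Mirlet7c-1 had 0, 7 and 3 against 1, 0 and 20. Gm11146 has 96 nt of annotated exon, so its RPKM, like those of the miRNA genes, rests on few reads.

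The other called hosts were well covered. Fam65a, with Mir1966 in an exon at 0, 5 and 0 reads in Scx-/- and 0, 0 and 3 in Scx+/+, measured 0.824 ± 0.186 RPKM in Scx-/- and 1.71 ± 0.279 in Scx+/+ (unadjusted p = 0.0178 in limma). Dnaja1, a co-chaperone gene, was called higher at 19.4 ± 0.285 against 14.3 ± 1.97 RPKM (unadjusted p = 0.0259), and Mir207 in its 5′ untranslated exon had 0, 11 and 2 reads in Scx-/- and 9, 0 and 19 in Scx+/+, with no such difference. Sf3a3, a splicing factor gene, was called higher at 26.2 ± 3.85 against 19.7 ± 1.32 RPKM (unadjusted p = 0.0464), all as mean ± SD with n = 3 and limma's unadjusted p. Mir697, in an intron of Sf3a3, had 17 reads in Scx-/- replicate 2 alone. With quantile normalization neither higher call held, and the 2 lower calls remained (3.74% of all genes called in either direction). With the median log2 ratio set to 0 there was 1 higher and 2 lower (3.43% of all genes called in either direction). H19, host of Mir675, measured 2380 ± 642 RPKM in Scx-/- and 1960 ± 573 in Scx+/+ (log2 difference 0.28, unadjusted p = 0.469 in limma), and with a library left out the difference ranged from 0.039 to 0.53.

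The genes that make and use miRNAs were better covered than the miRNA genes, and few of them were called. Of 28 looked for, 26 were in the table, and 2 (7.69%) were called, where 3.89% of all genes were, with a median log2 difference of 0.03 over the 26. Eif2c2, now named Ago2, encodes the Argonaute that cuts its targets. It measured 3.43, 3.31 and 2.99 RPKM in Scx-/- and 5.68, 3.84 and 7.25 RPKM in Scx+/+, without overlap, at a log2 difference of -0.72 (SE 0.27, unadjusted p = 0.0254, adjusted p = 0.967 in limma). Prkra, a protein partner of Dicer, measured 10.4, 8.50 and 11.1 RPKM in Scx-/- and 8.40, 3.73 and 6.86 RPKM in Scx+/+, also without overlap, at a log2 difference of 0.72 (SE 0.30, unadjusted p = 0.0391, adjusted p = 0.967 in limma). Leaving out each library in turn ended each call in 5 of 6 cases. It held for Eif2c2 only without Scx+/+ replicate 2, and for Prkra only without Scx+/+ replicate 1, while the p of the others lay between 0.0558 and 0.0964 for Eif2c2 and between 0.0787 and 0.148 for Prkra. With the median log2 ratio set to 0, Eif2c2 was called lower and Prkra was not called. The core enzymes were not called, with log2 differences of -0.42 for Drosha, 0.33 for Dgcr8, -0.18 for Dicer1 and -0.05 for Xpo5, which exports the precursor from the nucleus.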

How the data were processed

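Total RNA of AVC regions from 3 Scx-/- and 3 Scx+/+ hearts at E15.5 was sequenced. Reads were aligned to mm9 with TopHat 1.4.1, and reads in the exons of Ensembl genes were counted with easyRNASeq. RPKM of 18810 genes were deposited by the authors, filtered on low values and with a common fill-in value, without read counts. The strand setting and the handling of reads with several matches were not given in the sources used here.

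Gene positions, exon lengths and hosts came from the GENCODE annotation of mm9 (18695 of 18810 identifiers matched). Depth was solved from the steps of the low values. No mature sequence was taken for Mir1b, Mir133a-1, Mir143, Mir145, Mir1893 or Mir1901, which were left out by rule. Their absence from the sequence and seed counts does not show that RefSeq lacked them. Recovered reads, whole within 0.1 read for miRNA values that were not filled, cover counting error only and were not tested with a count model. The table as a whole was fitted on log2(RPKM + 0.1) in R 4.3.3 by limma 3.58.1, using an intensity trend and no covariate, which was tested on simulated data. Genes with an unadjusted p under 0.05 were called, with Benjamini-Hochberg adjustment over 18810 genes beside it. The low pseudocount understates changes of genes near the fill-in value. Single values per library were compared by an exact permutation test. Each library came from a separate heart, so p-values measure the spread between hearts. Tables, exact tests and plots used Python 3.11.15, scipy 1.17.1, pandas 2.3.3 and matplotlib 3.10.9.

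The miRNA genes, the lists and the tests were chosen with earlier results of these data known. Named by rule were the 10 genes highest in RPKM and in reads, called genes whose genotypes did not overlap, miRNA genes that the study lists as changed, members of fixed families, the hosts of all these and the genes that make and use miRNAs. Mir24-2, Mir1927, Mir351 and its neighbours, Mir99a, Mir546, Mir678, Mir207, Mir697, Mir1966, Mir505, Mir1970, Mir186, Mir22, Mir335 and the called hosts were named after their values were seen. The alternatives were pseudocounts of 0.01 and 1, filters at a mean of 1 RPKM or 20 reads, recovered reads normalised to depth (RPM), no trend, 2 one-way ANOVAs, 2 scalings, the replicate number as a block, sex (assigned from the RPKM of Xist) as a covariate and each library left out. Counting identical copies as 1 gene was added after seeing the data.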

Additional observations from a re-analysis of the deposited data

How the results depend on the processing

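Of the 6 called miRNA genes, Mir27b and Mir700 kept their call in every alternative that gave a value. Instead of 6, there were 3 calls on recovered reads normalised to depth (3.16% of all genes called), 3 in the one-way ANOVA on log2 RPKM (4.58%), 3 in that on RPKM (4.51%) and 0 among the 14 genes with a mean of at least 20 reads (3.85%). Leaving out a library gave 7 to 16 miRNA calls, where 2.87% to 8.23% of all genes were called. The 16 came without Scx-/- replicate 2, where 626 of all genes (3.33%) were called. Without Scx+/+ replicate 2, 7 miRNA genes were called, and 1549 of all genes (8.23%) in place of 731. For the 26 genes that make and use miRNAs, calls numbered 4 on normalised reads, 1 without a trend, 1 with quantile normalization and 0 in both ANOVAs, against 2, and 0 to 5 with a library left out. For the 78 hosts there were 2 without a trend and 2 with quantile normalization, against 4, and 3 to 8 with a library left out. The number of miRNA genes with a read differed by -3.00 to 7.33 with a library left out. Among single genes the direction turned for Mir682 (-0.15, and -0.33 to 0.056 with a library left out), 2010111I01Rik (0.14, and -0.040 to 0.33) and Cdk13 (-0.041, and -0.20 to 0.051). The cause of these changes was not tested.

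Pairing of libraries by replicate number was not seen, with correlations of same-numbered deviations of 0.0619, -0.155 and -0.121. These deviations come from means of few libraries, so they cannot exclude a shared litter or processing, which the labels do not give. With the number as a replicate block, 9 miRNA genes, Mir1903 among them (unadjusted p = 0.00400), and 2 hosts were called, and 573 of all genes (3.05%). The own number was the best match for Scx-/- replicate 1 alone of the 6 libraries. With sex, assigned from Xist and not given in the labels, as a covariate, 8 miRNA genes were called, and 649 of all genes (3.45%).

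Depth limits these values, with a median of 12 reads in the highest library of a miRNA gene. Reads shared with a host or a copy cannot be separated.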

Other observations

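By chromosome, 40 of the 147 miRNA genes lay on chromosome 2, where the Sfmbt2 group is, and 13 on the X chromosome, and none of either was called. Chromosomes 4 and 13 each held 2 of the called genes, out of 7 and 8 miRNA genes, and chromosomes 1 and 17 each held 1.

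There were 5 miRNA genes with more than 15 reads in 1 library and none in the others. Mir505 had 23 and Mir1970 had 27 reads in Scx-/- replicate 2, where Mir21 had 21 and Mir697 17, and Mir186 had 18 reads in Scx+/+ replicate 1. Mir22, in an exon of Tlcd2, had 33 reads in Scx+/+ replicate 2, 2 in Scx-/- replicate 1 and none in the other 4 libraries. Mir335, in an intron of the imprinted gene Mest, was by contrast seen evenly, with 18, 17 and 8 reads in Scx-/- and 16, 11 and 21 in Scx+/+.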
